A study of Mus musculus with 8 samples.

Results

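Oxidative phosphorylation is carried out in the inner mitochondrial membrane by complexes I to IV of the respiratory chain, which pass electrons to oxygen and pump protons, and by complex V, the ATP synthase, which uses the proton gradient to make ATP. Most subunits are encoded in the nucleus and imported, while a small set is encoded by mitochondrial DNA. In liver the chain reoxidises the carriers reduced by fatty acid oxidation and the tricarboxylic acid cycle. The genes described here are the nuclear-encoded subunits whose symbols begin with Ndufa, Ndufb, Ndufc, Ndufs, Ndufv, Uqcr, Cox4 to Cox8 or Atp5, or are Sdha to Sdhd, together with the Ndufaf assembly factors that the same spelling takes in. Protein-coding genes with a probe set annotated to exactly 1 gene were kept, and for each the brightest probe set, by its mean signal on 8 arrays, was used. This gave 91 genes of the 30633 tested: 34 of complex I, 4 of complex II, 8 of complex III, 20 of complex IV (Ndufa4 and Ndufa4l2 are counted there), 16 of complex V and 9 assembly and accessory genes. The RefSeq table holds 96 protein-coding genes of this spelling, and 6 of them were not analysed here. Dmac2 was taken in under its platform name Atp5sl.

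The livers came from male C57BL/6 mice on a high fat diet for 13 weeks. The 4 treated mice received 5 intraperitoneal injections of anti-miR-128-3p, which blocks the microRNA miR-128-3p, and the 4 controls a control injection. The treatment field names miR-128-3p itself and a vehicle, whereas titles and design text name the inhibitor, and the groups here follow the titles. The animals' age, the inhibitor's dose and a mouse for each array are not stated, so the p-values measure the spread between these 8 samples. The comparison asks whether inhibition of miR-128-3p alters the RNA of the oxidative phosphorylation genes in this liver. The mature microRNA that the treatment names is shown for reference, as RefSeq gives it on GRCm38.p6 for Mir128-1 (chr1:128202404-128202424, plus strand) and Mir128-2 (chr9:112118644-112118664, minus strand), with its seed, bases 2 to 8, in capitals.
mmu-miR-128-3p: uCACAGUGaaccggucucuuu

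Array medians over genes lay between 5.04 and 5.12 on the log2 scale of the RMA values. As a detection level the 95th percentile of 5222 negative control rows was used, a log2 signal of 7.38. It is strict, since 18.6% of the 30633 genes lie above it. Of the 91 genes, 57 lay above it: 23 of complex I, 4 of complex II, 5 of complex III, 10 of complex IV, 12 of complex V and 3 assembly and accessory genes. No direction is read from the other 34. Levels of different genes are not compared with each other, because probe sets differ in brightness for reasons other than RNA abundance. In these bulk samples, fewer cells of a type and less RNA per cell cannot be told apart. The hepatocyte genes Alb, Apoa1, Apoa2, Cps1, Ttr and Hnf4a were all above the detection level, as the tissue label calls for.

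The nuclear-encoded oxidative phosphorylation genes differed little between anti-miR-128-3p and control livers. Over all 91 the median log2 difference (anti-miR-128-3p minus control) was -0.019, against -0.0017 over all 30633 genes. Over the 57 above the detection level it was -0.040, and over the 4043 protein-coding genes above that level -0.038. Of the 57, 35 were lower and 22 higher, which is 61.4% lower, against 64.0% of those 4043. No member passed an adjusted p of 0.05 (limma, Benjamini-Hochberg over all genes; smallest member adjusted p = 0.423), as no gene of the 30633 did (0%; smallest adjusted p = 0.194). At an unadjusted limma p under 0.05 there were 4 members, or 4.40%, against 7.63% of all genes. The 3 above the detection level, Ndufb9, Cox6a1 and Ndufa10, were lower, against 3.37% of all genes lower and 4.26% higher at that p. Of the 4043 protein-coding genes above that level, 383 were lower and 130 higher at that p, or 12.7% in all. The groups did not overlap in 2 members, or 2.20%, against 4.41% of all genes. Both shares lay below the background.

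Above the detection level the differences ranged from -0.27 for Ndufb9 to 0.12 for Cox7a2l. The 95% interval of the difference reached a median of 0.18 to either side (a 1.14-fold change) over these 57 genes. For 49 of the 57 (86.0%) the whole interval lay within a 1.25-fold change either way, against 63.8% of the protein-coding genes above the detection level. These were 19 of 23 complex I genes, 3 of 4 of complex II, 3 of 5 of complex III, 10 of 10 of complex IV, 11 of 12 of complex V and 3 of 3 assembly and accessory genes. The other 34 genes are left out of this count, because signal at the background level can understate a fold change.

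**Figure D1:**
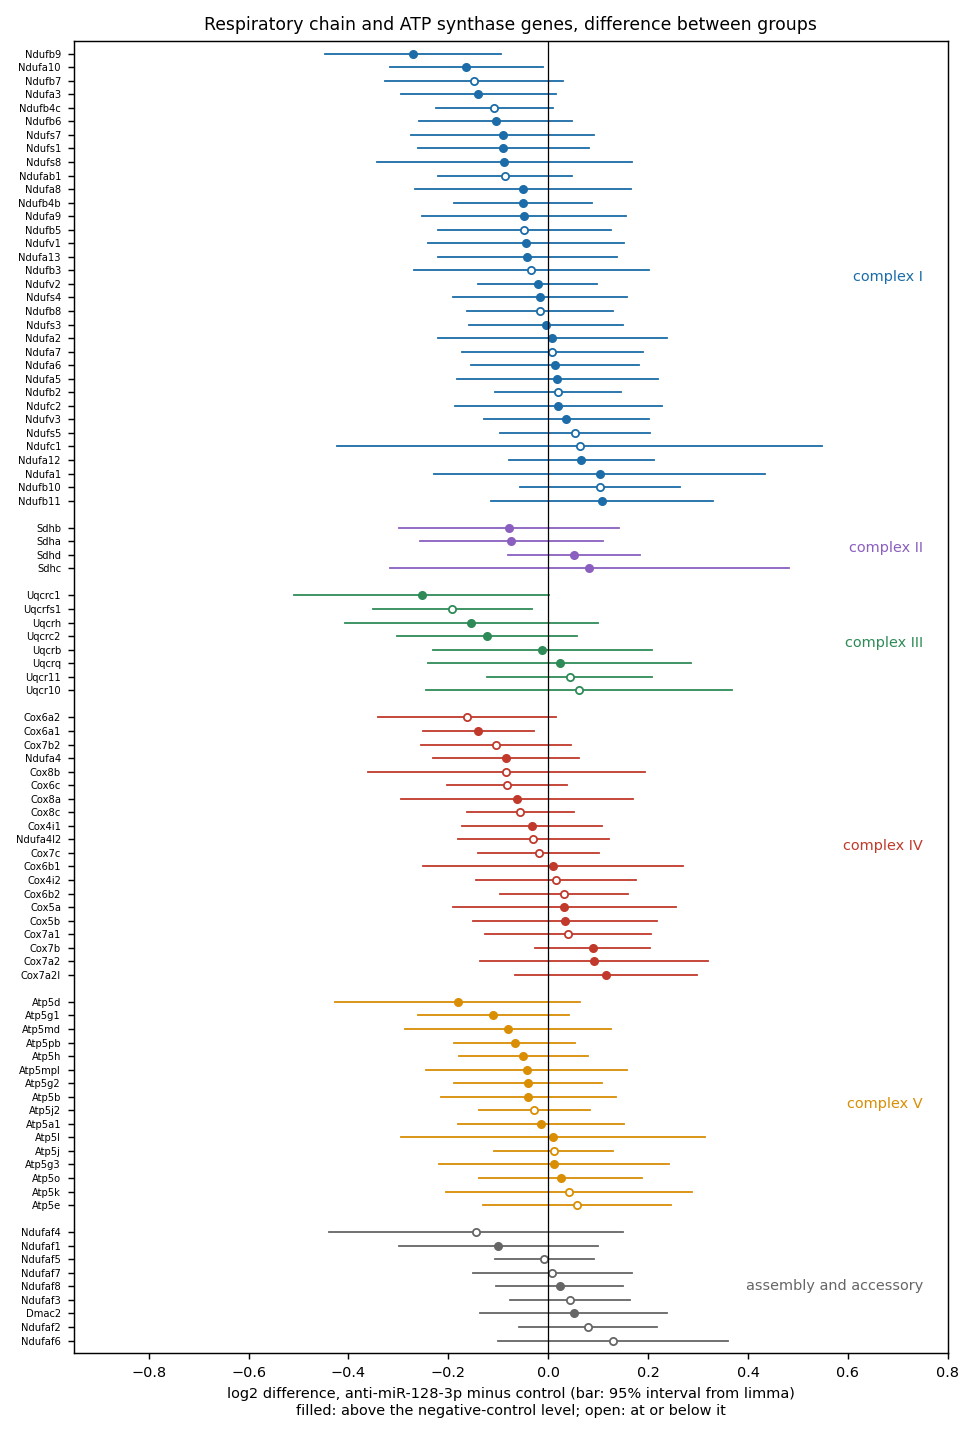
Log2 difference of each of the 91 genes (rows, grouped by complex), anti-miR-128-3p minus control, with its 95% limma interval (n = 4 livers each). Filled points lie above the detection level and open points at or below it. The points run from -0.27 (Ndufb9) to 0.13 (Ndufaf6), and all but 4 of the intervals cross 0.

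Complex I takes electrons from NADH. Its 34 measured genes had a median log2 difference of -0.028, and of the 23 above the detection level 15 were lower and 8 higher. Ndufb9, an accessory subunit of the membrane arm, had the smallest p of all 91 genes. Its log2 signal was 11.87, 12.09, 11.92 and 11.91 in anti-miR-128-3p replicates 1 to 4, against 12.04, 12.22, 12.26 and 12.36 in control replicates 1 to 4. The groups overlapped through 1 liver on each side, anti-miR-128-3p replicate 2 and control replicate 1. The difference was -0.27 ± 0.08 (limma SE), 0.83-fold, with an adjusted p of 0.423 by limma, while exact permutation of the livers (two-sided) gave p = 0.0571. Ndufa10, another accessory subunit, was at 9.72, 9.92, 9.66 and 9.74 in anti-miR-128-3p livers and 9.84, 9.90, 9.93 and 10.04 in control livers. Only anti-miR-128-3p replicate 2 reached the control range, and the difference of -0.16 ± 0.07 had a limma adjusted p of 0.620. Ndufa3 averaged 8.08 ± 0.12 in anti-miR-128-3p livers and 8.22 ± 0.08 in control livers (SD, n = 4 each), with a difference of -0.14.

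Of the subunits that carry the cofactors of complex I, Ndufv1, which binds the flavin that accepts electrons from NADH, averaged 8.68 ± 0.17 in anti-miR-128-3p and 8.72 ± 0.08 in control livers (SD, n = 4 each), a difference of -0.04 with a 95% interval from -0.24 to 0.15. Ndufs1, the largest of the iron-sulphur subunits, was at 8.23 ± 0.14 and 8.32 ± 0.08 in the same order, a difference of -0.09 with an interval from -0.26 to 0.08. Ndufb4c, a close copy of Ndufb4, was at 4.92 ± 0.08 in anti-miR-128-3p and 5.03 ± 0.04 in control livers, below the detection level, and its probes may share sequence with the other copies. Among the 9 assembly and accessory genes, which help build complex I and other parts of the chain, Ndufaf2 differed by 0.08 and Ndufaf6 by 0.13, both below the detection level. The median of these 9 was 0.023.

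Complex II, succinate dehydrogenase, links the tricarboxylic acid cycle to the chain and is encoded entirely in the nucleus. All 4 subunits were above the detection level, 2 lower and 2 higher, with a median log2 difference of -0.011. The flavoprotein Sdha was at 9.36, 9.58, 9.39 and 9.33 in anti-miR-128-3p livers and 9.31, 9.48, 9.52 and 9.64 in control livers, so the groups overlapped. The iron-sulphur subunit Sdhb differed by -0.08 (95% interval -0.30 to 0.14) and the membrane anchor Sdhd by 0.05 (-0.08 to 0.18). The other anchor, Sdhc, was at 9.21, 9.51, 9.20 and 9.45 in anti-miR-128-3p livers and 9.44, 8.68, 9.52 and 9.40 in control livers. Control replicate 2 stood apart from the other 3 controls, and without it the Sdhc difference was -0.11 in place of 0.08.

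Complex III passes electrons from ubiquinol to cytochrome c, and its genes had the most negative median of the 5 complexes, -0.067 over 8 genes and -0.12 over the 5 above the detection level, of which 4 were lower and 1 higher. Uqcrc1, a core subunit, was at 9.96, 10.35, 9.94 and 10.24 in anti-miR-128-3p livers, against 10.14, 10.40, 10.48 and 10.49 in control livers. Anti-miR-128-3p replicates 2 and 4 lay within the control range, and the difference of -0.25 ± 0.11 (0.84-fold) had a limma adjusted p of 0.660. Its partner core subunit Uqcrc2 differed by -0.12 and the hinge protein Uqcrh by -0.15, neither passing. Uqcrfs1, the Rieske iron-sulphur protein, was at 6.22, 6.45, 6.17 and 6.17 in anti-miR-128-3p livers and 6.39, 6.46, 6.42 and 6.51 in control livers. Its limma adjusted p was 0.566, and as it lies below the detection level no direction is given.

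Complex IV, cytochrome c oxidase, reduces oxygen to water. Several of its small subunits exist as a common form and a form restricted to muscle, lung, testis or other tissues. The 20 genes had a median log2 difference of -0.025, and of the 10 above the detection level 4 were lower and 6 higher. The 2 members whose groups did not overlap were both here, 1 in each direction. Across all genes, 1.89% were lower without overlap and 2.52% higher. Cox6a1, the common form of subunit 6a, was at 11.65, 11.75, 11.63 and 11.73 in anti-miR-128-3p livers and 11.81, 11.76, 11.89 and 11.84 in control livers. All anti-miR-128-3p livers lay below all controls, with a gap between the nearest livers far smaller than the spread within either group. The difference was -0.14 ± 0.05 (0.91-fold), with a limma adjusted p of 0.550, while exact permutation (two-sided) gave p = 0.0286, the smallest that 4 against 4 can give. Cox7b was at 8.25, 8.40, 8.23 and 8.22 in anti-miR-128-3p livers and 8.19, 8.16, 8.21 and 8.19 in control livers. Here all anti-miR-128-3p livers were higher, replicate 2 most of all, and the difference of 0.09 ± 0.05 had a limma adjusted p of 0.755. The separation of Cox6a1 was lost when arrays were quantile normalized again or centred on their medians, and that of Cox7b when they were centred.

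The groups overlapped for the other common forms of complex IV. Cox4i1, the regulatory subunit 4, was at 7.66 ± 0.12 in anti-miR-128-3p and 7.70 ± 0.03 in control livers (SD, n = 4 each), a difference of -0.03 with a 95% interval from -0.17 to 0.11. The interval was -0.19 to 0.25 for Cox5a, -0.25 to 0.27 for Cox6b1, -0.30 to 0.17 for Cox8a, -0.14 to 0.32 for Cox7a2 and -0.23 to 0.06 for Ndufa4. Cox7a2l, a relative of Cox7a2 that takes part in joining complexes III and IV, differed by 0.12 (-0.07 to 0.30). The restricted forms Cox4i2, Cox6a2, Cox6b2, Cox7a1, Cox7b2, Cox8b and Cox8c, and Ndufa4l2, a relative of Ndufa4, all lay below the detection level in these livers. Their group means ran from 3.07 in anti-miR-128-3p and 3.17 in control livers (Cox7b2) to 5.90 and 5.88 in the same order (Cox4i2). The common forms Cox4i1, Cox6a1, Cox6b1, Cox7a2, Cox7b and Cox8a all lay above it.

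Complex V had 16 measured genes with a median log2 difference of -0.034. Of the 12 above the detection level 9 were lower and 3 higher, and no complex V gene had an unadjusted p under 0.05. Atp5b, the catalytic beta subunit, was at 10.25, 10.49, 10.36 and 10.26 in anti-miR-128-3p livers and 10.24, 10.34, 10.39 and 10.54 in control livers. The groups covered almost the same range, and the difference was -0.04 with a 95% interval from -0.22 to 0.14. Atp5d, the delta subunit of the central stalk, differed by -0.18 (-0.43 to 0.06), by -0.29 without control replicate 2 and by -0.10 with its probe sets averaged. Atp5g1, which encodes 1 of 3 precursors of the proton-carrying c subunit, differed by -0.11, while the other precursor genes Atp5g2 and Atp5g3 differed by -0.04 and 0.012. Of the peripheral stalk, Atp5pb differed by -0.07 and Atp5h by -0.05. Atp5g2 had a second probe set, with a difference of -0.0061, whereas the further probe sets of Atp5d and Atp5l lay below the detection level. By their names the Atp5g2 probe sets lie on different chromosomes, so they need not read the same place in the genome. The same holds for the Atp5l set used (mean 9.75) and its other sets (6.81 and 5.52). Atp5l counts above the detection level by that set alone.

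**Figure D2:**
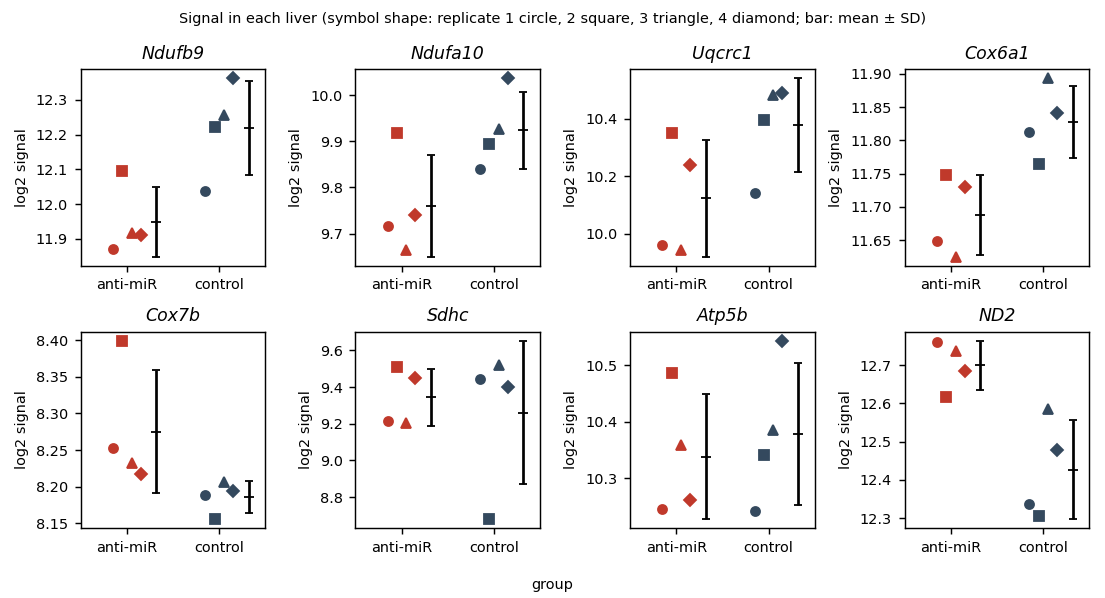
Log2 signal in each liver for 7 nuclear-encoded genes and the mitochondrially encoded ND2, anti-miR-128-3p left and control right, with group mean ± SD (n = 4 each); each panel has its own scale. Cox6a1, Cox7b and ND2 show no overlap between the groups, and the low point of Sdhc is control replicate 2.

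The livers of the anti-miR-128-3p group differed from one another by more than the groups did. Replicate 2 held the highest value of its group in 75 of the 91 genes (82.4%) and in 54 of the 57 above the detection level, against 44.4% of the protein-coding genes above that level. Replicate 3 held the lowest in 54 of all 91 (59.3%), members at or below the detection level included, against 33.5% of those protein-coding genes. In the gene-centred signal, the log2 signal minus a gene's mean over the 8 livers, the median over the 91 genes was -0.047, 0.13, -0.11 and 0.0006 in anti-miR-128-3p replicates 1 to 4 and -0.019, 0.0032, 0.023 and 0.056 in control replicates 1 to 4. The highest and the lowest liver were both treated ones, 0.24 apart, while the controls spanned 0.076 and the group means of these medians differed by -0.024. For the protein-coding genes above the detection level the medians of anti-miR-128-3p replicates 2 and 3 were 0.040 and -0.037. The SD within the anti-miR-128-3p group exceeded that within the control group in 67 of 91 members (73.6%). Above the detection level this held for 41 of 57 members (71.9%), against 49.0% of the protein-coding genes.

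**Figure D3:**
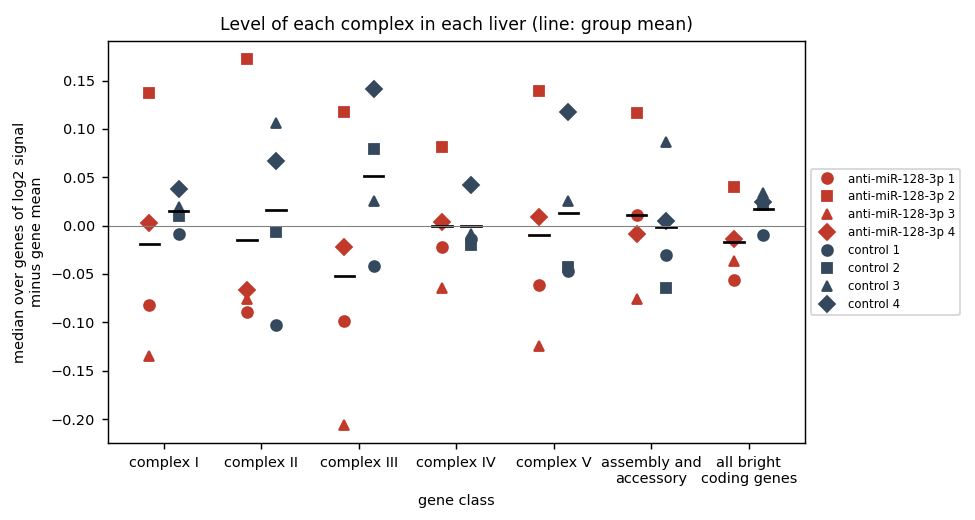
Median gene-centred log2 signal of each complex in each liver (vertical axis), anti-miR-128-3p left and control right within each class, with group means as lines and 4 livers a group; the last class is the 4043 protein-coding genes above the detection level. Anti-miR-128-3p replicate 2 (squares) is the highest treated liver in every class, and replicate 3 (triangles) the lowest in all but complex II and the 4043 genes.

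Anti-miR-128-3p replicate 2 was the highest treated liver in each of the 5 complexes, and replicate 3 the lowest in all but complex II, where replicate 1 was. Anti-miR-128-3p replicate 2 was at 0.14 for complex I, 0.17 for complex II, 0.12 for complex III, 0.081 for complex IV and 0.14 for complex V, and replicate 3 at -0.13, -0.076, -0.21, -0.064 and -0.12. Control replicate 4 was the highest control in complexes I, III, IV and V. The 57 genes above the detection level varied together: their mean pairwise correlation over the 8 livers was 0.45, against 0.074 for all 4043 protein-coding genes above it, a description in which all points share the same 8 arrays. Ndufv1, Ndufa13 and Cox4i1 followed the median of the other members most closely (r = 0.97, 0.94 and 0.93 over 8 livers), and Dmac2, Cox7a2l and Uqcrq least (r = 0.16, 0.19 and 0.20).

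**Figure D4:**
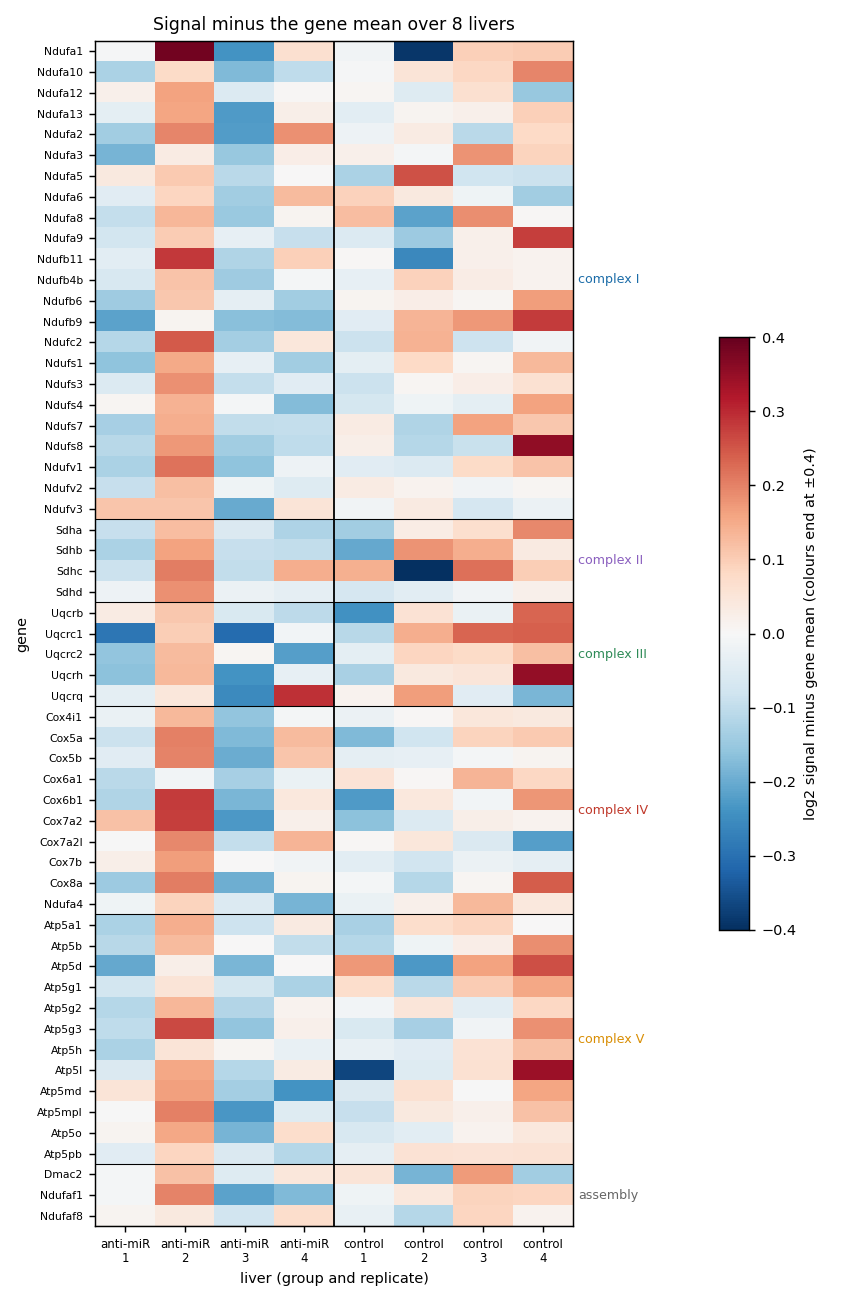
Gene-centred log2 signal (colour) of the 57 genes above the detection level (rows, by complex) in the 8 livers, anti-miR-128-3p left and control right of the line. The column of anti-miR-128-3p replicate 2 is red in nearly every row, that of replicate 3 blue, and the controls are paler except for control replicate 4 and single cells such as Sdhc in control replicate 2.

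The counts depended on anti-miR-128-3p replicate 2. It was the highest of its group in 75 of the 91 genes, so leaving it out lowers their differences by construction. Replicate 3 was the lowest in 54 of 91, and leaving it out raises differences in the same way. How all protein-coding genes above the detection level split in these fits was not counted. Without replicate 2, 47 of the 57 genes above the detection level were lower and 10 higher, with a median of -0.083. Of all 91, 13 (14.3%) had an unadjusted limma p under 0.05, against 8.51% of all genes in the same fit. With all 8 livers, protein-coding genes above the detection level reached such a p more often than all genes (12.7% against 7.63%). They also lacked overlap more often (5.74% against 4.41%). Their shares without replicate 2 were not counted, so an excess of members over genes of similar signal is not shown. The 9 of the 13 members above the detection level were Ndufb9, Ndufa10, Cox6a1, Uqcrc1, Ndufaf1, Ndufb6, Uqcrc2, Ndufs1 and Ndufa3, all lower, and the other 4 were Uqcrfs1, Ndufb4c, Ndufb5 and Cox6c. The smallest limma adjusted p among members was 0.271. The groups then did not overlap in 11 members (12.1%), against 8.71% of all genes, and 7 of the 11 were above the detection level, 6 lower and 1 higher. Without replicate 3, 28 of the 57 were lower and 29 higher, with a median of 0.0019. Of all 91, 5 (5.49%) then had an unadjusted p under 0.05, against 7.95% of all genes, and 6 (6.59%) did not overlap, against 8.15%.

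Markers of other liver cell types also differed between the livers. The 10 Kupffer cell and macrophage markers had a median gene-centred signal of 0.57, -0.39, 0.38 and 0.20 in anti-miR-128-3p replicates 1 to 4, so replicate 2 was the lowest of its group, against -0.24, 0.05, -0.88 and 0.14 in the controls. Their mean log2 level ran from 7.74 to 8.89 in anti-miR-128-3p livers and from 7.14 to 8.11 in control livers, and of the 8 markers above the detection level 7 were higher and 1 lower. The 8 stellate cell and fibroblast markers were at -0.09, -0.12, 0.88 and 0.32 in anti-miR-128-3p livers, so replicate 3 was the highest, and at -0.44, -0.15, -0.37 and -0.05 in controls, with mean levels from 7.48 to 8.52 and from 7.14 to 7.40 in the same order. Of the 4 stellate markers above the detection level 1 was higher and 3 were lower. The higher was Col1a1, by 1.62 ± 0.41 without overlap (limma adjusted p = 0.342). The lower were Reln (-0.29), Dcn (-0.10) and Lrat (-0.06). Col3a1 and Col1a2 differed by 1.22 and 1.45, also without overlap. Their means lay below the detection level, that of Col3a1 narrowly (7.36). Of the 7 sinusoidal endothelial markers the 4 above the detection level were all lower, Clec4g by -0.53 ± 0.19 (limma adjusted p = 0.553). The median over all 7, with the 3 at or below that level, was -0.25, -0.20, 0.0008 and -0.0057 in anti-miR-128-3p livers. In controls it was 0.046, 0.27, -0.12 and 0.21. The 6 neutrophil markers lay below the detection level, with control replicate 1 apart at 1.37 and the other 7 livers between -0.34 and -0.046. The median of the 6 hepatocyte markers lay between -0.031 and 0.062 in every liver, but most of these have very bright probe sets. Hnf4a, a hepatocyte transcription factor, ran from 10.12 to 10.71 over the 8 livers and differed by -0.24 (limma adjusted p = 0.606). The part of these cell types in the spread of the oxidative phosphorylation genes was not tested. The 7 skeletal muscle and fat markers all lay below the detection level.

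Of 13 subunit genes encoded by mitochondrial DNA 5 had a probe set of their own. The 4 above the detection level were all higher in anti-miR-128-3p livers. Of the 57 nuclear-encoded members above it, 3 assembly and accessory genes included, 61.4% were lower. The share was 64.0% for all protein-coding genes above it, so that lean was not particular to the members. ND2, a complex I subunit, was at 12.76, 12.62, 12.74 and 12.69 in anti-miR-128-3p livers and 12.34, 12.31, 12.59 and 12.48 in control livers. The groups did not overlap, and anti-miR-128-3p replicate 2, the highest treated liver for most nuclear genes, was the lowest for ND2. The difference was 0.27 ± 0.07 (1.21-fold), with a limma adjusted p of 0.342. COX1, the catalytic subunit of complex IV, differed by 0.19 ± 0.10, ND6 by 0.12 ± 0.07 and ND3 by 0.06 ± 0.07, and none passed. ND3 differed by -0.0036 without control replicate 1. COX2, a complex IV subunit here and not the prostaglandin enzyme, averaged 7.13 in anti-miR-128-3p and 7.05 in control livers, below the detection level. Whether the mitochondrial and nuclear subunits differ in their response was not tested.

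Factors that build and serve the chain gave no adjusted call either. Above the detection level, the lower genes were 3 of 3 in the list of further complex I assembly factors, 3 of 3 in that of complex III assembly with cytochrome c1 (Cyc1, a catalytic subunit), 6 of 8 for complex IV and 1 of 1 for complex V. Of all protein-coding genes above that level 64.0% were lower, and the counts of these short lists were not tested against that share. None of the listed genes passed the adjusted threshold, and the 4 for complex II lay below the detection level. Of the member assembly and accessory genes above it, Ndufaf1 differed by -0.100, Ndufaf8 by 0.023 and Dmac2 by 0.051. Foxred1, a complex I assembly factor, was at 6.55, 6.91, 6.75 and 6.80 in anti-miR-128-3p livers and 6.98, 7.46, 7.21 and 7.02 in control livers, without overlap but below the detection level (limma adjusted p = 0.389). Cox15, which makes the heme A of complex IV, was at 7.57, 7.67, 7.74 and 7.51 in anti-miR-128-3p livers and 7.83, 7.76, 7.76 and 8.001 in controls, also without overlap, a difference of -0.22 ± 0.07 (limma adjusted p = 0.515). Coa6, a copper delivery factor of complex IV, averaged 6.89 in anti-miR-128-3p livers and 7.06 in controls, without overlap but below the detection level. Ttc19, a factor of complex III, was at 7.07, 7.46, 7.37 and 7.44 in anti-miR-128-3p livers and 7.48, 7.59, 7.57 and 7.48 in controls, again without overlap. Its difference of -0.20 ± 0.09 had an adjusted p of 0.642 by limma.

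Among 15 measured genes of electron carriers and coenzyme Q synthesis, Etfdh, which feeds electrons from fatty acid oxidation into the ubiquinone pool, had the smallest p. It was at 9.42, 9.53, 9.46 and 9.51 in anti-miR-128-3p livers and 9.65, 9.65, 9.66 and 9.61 in control livers. The groups did not overlap, and the difference of -0.16 ± 0.04 had a limma adjusted p of 0.347. Of 12 tricarboxylic acid cycle genes 11 were above the detection level, 9 lower and 2 higher. Of all protein-coding genes above it 64.0% were lower. Idh3b, a subunit of isocitrate dehydrogenase, differed by -0.26 ± 0.11 (limma adjusted p = 0.635). Among the transporters and porins, Vdac3 differed by 0.17 ± 0.07 and the ADP/ATP carrier Slc25a5 by -0.12 ± 0.10. Of the regulators, Ppara, the fatty acid sensing receptor, differed by -0.17 ± 0.07 (limma adjusted p = 0.641). Ppargc1a, the coactivator that drives respiratory genes, was at 7.16, 7.43, 8.06 and 6.96 in anti-miR-128-3p livers and 7.24, 7.05, 7.21 and 7.30 in controls, with replicate 3, the treated liver lowest for the subunits, at the top. Its mean lies below the detection level.

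Nuclear respiratory genes are known to share promoter sites for the factors NRF1, GABPA (an ETS factor) and YY1. RefSeq promoter windows of 300 bases on GRCm38.p6, from 250 before to 50 after a gene's start, were at hand for 74 of the 91 genes (79 windows). The NRF1 core CGCATGCG, read on both strands, lay in 10 of the 79 (12.7%), against 1.87% of all 32851 windows and 2.58% of those of protein-coding genes. The ETS core CCGGAAG lay in 24.1%, against 8.86% of all windows and 11.8% of protein-coding ones. The YY1 core AAGATGGCG lay in 11.4%, against 1.40% and 1.88%, and the ESRRA word AAGGTCA in 8.86%, against 4.72% and 3.94%. The ETS and YY1 cores can overlap through the letters AAG. A match is a description, not a bound site. Cox6a1 and Uqcrc1, whose values in each liver are given above, hold the NRF1 core, and 60 bases around it are shown with the core in capitals. They serve only as examples of the match, and neither gene passed an adjusted p of 0.05. Relative to the gene start the core begins at -161 in Cox6a1 and at 31, past the start, in Uqcrc1. The Cox6a1 stretch is chr5:115349086-115349145 on the minus strand, and the Uqcrc1 stretch chr9:108936638-108936697 on the plus strand.
Cox6a1: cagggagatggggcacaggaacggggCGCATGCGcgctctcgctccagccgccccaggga
Uqcrc1: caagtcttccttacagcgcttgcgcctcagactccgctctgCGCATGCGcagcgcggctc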

How the data were processed

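Total RNA from 8 livers was extracted with TRIzol and labelled as biotinylated cRNA for an Affymetrix array, per the labels' protocols. The deposited values are log2 signals made by the authors with RMA, per the submitters' processing notes; no source used here gives its version or a filter. RMA as usually run equalises the arrays' value distributions, so a shift of all genes would not show. Of 72688 rows, 6732 controls were left out; 31085 of 65956 transcript probe sets name 1 gene, giving 30633 genes, with symbols updated through Entrez IDs against RefSeq (GRCm38.p6).

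All genes were fitted with limma 3.58.1 in R 4.3.3 (lmFit, eBayes, two-sided, no covariate, 8 arrays) and adjusted by Benjamini-Hochberg. Single values were also compared by an exact permutation test (70 assignments, smallest p = 0.0286). The fit was tested on simulated data. Python 3.11.15, pandas 2.3.3 and matplotlib 3.10.9 made tables and plots. No counts exist, so the number of arrays limits precision.

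The genes named are those whose groups do not overlap, the 4 of smallest p per complex, 2 assembly factors, fixed core subunits and isoform sets, and 2 per related list. Other genes were named for their values after these were seen: Ndufa13, Dmac2, Uqcrq, Atp5g2, Atp5g3, Atp5l, Hnf4a, Clec4g, Col1a1, Col1a2, Col3a1, Reln, Dcn, Lrat, Cyc1, Ndufaf8, and those listed without anti-miR-128-3p replicate 2. Members and lists were chosen with earlier results of these data known. Alternatives were the replicate number as a block, moderation, array weights, dim-gene filters, probe-set means, renormalization, centring and leaving out each array.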

Additional observations from a re-analysis of the deposited data

Results flagged for a closer look

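In 138 sets of 4 livers, 6 values lay far from the other 3 of their group by Dixon's test, which chance alone gives in about 1 set of 20. In anti-miR-128-3p replicate 2, Sdhb was the highest at 9.18 (nearest liver 8.92), Sdhd the highest at 10.003 (nearest 9.80), and the median gene-centred signal of complex II the highest at 0.17 (nearest -0.067). In control replicate 2, Sdhc was the lowest at 8.68 (nearest 9.40). In control replicate 1, Atp5pb was the lowest at 8.63 (nearest 8.72). In control replicate 3, Ndufa4l2 was the lowest at 5.28 (nearest 5.44), below the detection level.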

How the results depend on the processing

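No alternative brought a member past an adjusted p of 0.05, the smallest limma adjusted p ranging from 0.271 to 0.801 over settings. Members at an unadjusted p under 0.05 numbered 2 with trend and robust moderation (2.20%, against 7.30% of all genes) and 6 with array weights (6.59%, against 8.41%), in place of 4. Leaving out each liver gave 2 to 13 such members (5.61% to 8.51% of all genes), 2 to 11 without overlap (6.27% to 8.71% of all genes), and 0 to 1 genes past the adjusted threshold (limma adjusted p = 0.0375, without control replicate 4). The median over members then ran from -0.066 to 0.0095, for complex I from -0.083 to 0.0057, for complex II from -0.064 to 0.022, for complex III from -0.12 to -0.047, for complex IV from -0.044 to 0.011, for complex V from -0.075 to 0.0077 and for assembly and accessory genes from -0.0029 to 0.055. With the replicate block, 0 genes passed and 3 members (3.30%, against 7.35% of all genes) had an unadjusted p under 0.05. With each gene's group mean taken off, same-numbered livers correlated at -0.031, -0.020, -0.079 and -0.12 over all genes. These values show no pairing by number, but with 4 arrays a group they cannot exclude it. In 16 of 62 named genes the sign turned under some alternative. Quantile normalization gave -0.0064 for Cox4i2 and -0.023 for Cox6b1, centring -0.0027 for Cox6b1, and array weights 0.0055 for Ndufa4l2. Leaving out each liver gave differences from -0.089 to 0.015 for Atp5b, from -0.080 to 0.015 for Cox4i1, from -0.031 to 0.079 for Cox4i2, from -0.029 to 0.096 for Cox5a, from -0.083 to 0.072 for Cox6b1, from -0.0075 to 0.058 for Cox6b2, from -0.017 to 0.092 for Cox7a1, from -0.14 to 0.0071 for Cox8a. It also gave differences from -0.17 to 0.035 for Cox8b, from -0.0036 to 0.097 for ND3, from -0.079 to 0.0049 for Ndufa4l2, from -0.12 to 0.0019 for Ndufv1, from -0.014 to 0.35 for Ppargc1a, from -0.075 to 0.0026 for Sdhaf3, from -0.11 to 0.17 for Sdhc, from -0.00047 to 0.072 for Sdhd. Of 26 named members above the detection level, 18 kept their sign, and 12 of these moved over 1.5 times, such as Uqcrh (from -0.22 to -0.062), Sdhb (from -0.16 to -0.032) and Cox7a2 (from 0.014 to 0.18). The cause was not tested. The 4 arrays a group, and signal at or below the detection level for 34 members, limit what can be seen.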
